A study of Mus musculus with 6 samples.

Results

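The 33 genes described here are interferon-stimulated genes, a fixed list matched by symbol in an expression table of 55487 genes, and all 33 were found once. They were followed in kidney endothelial cells of 6 mice, 3 control and 3 I-PpoI. The control mice were wild-type littermates. The I-PpoI mice carried Cre recombinase under the VE-cadherin promoter, which is active in endothelium, and a Cre-dependent I-PpoI cassette at a Rosa site that the labels number differently for each mouse. I-PpoI is a homing endonuclease that cuts DNA on both strands. All 6 mice ate a high-fat diet, with 60% of energy from fat, for 4 weeks from an age of 8 weeks, and cells were pulled from digested whole kidneys by CD31 magnetic beads. Values are FPKM, fragments divided by exon length and by the counted fragments of the library, so levels can be compared between genes. The transgene is not a row of the table used here, so the labels were not checked against it.

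Interferons are secreted proteins that warn neighbouring cells of infection or of nucleic acid in the wrong place. Their receptors activate the Jak kinases, and a complex that holds Stat2 and Irf9 then binds interferon-stimulated response elements in promoters. The genes switched on include sensors of foreign RNA and DNA, the transcription factors of the pathway itself, and effectors that block viral replication. Fragments of damaged DNA in the cytosol can feed the same pathway through the sensor cGAS and the adaptor Sting.

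The binding site is visible in the promoters of the list. RefSeq promoter windows on GRCm38.p6, running from 250 bases before to 50 bases after each start, were matched for 24 of the 33 members. The core of the response element, GAAA, any 2 bases and GAAA again, was searched on both strands with overlaps allowed and was present in 16 of these 24 (66.7%), against 3.99% of 27025 genes with a window. More than 1 match lay in 8 members. The palindromic gamma-activated site TTCNNNGAA was in 5 of 24 (20.8%), against 9.55% of all genes. The 7 stretches of 60 bases shown next, one or more for each role except the sensors, carry the core in capitals. They are written 5′ to 3′ in the direction of the gene.

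Isg15: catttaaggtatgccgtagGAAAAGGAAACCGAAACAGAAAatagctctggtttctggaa
Bst2: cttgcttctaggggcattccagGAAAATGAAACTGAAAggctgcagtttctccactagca
Ifit3: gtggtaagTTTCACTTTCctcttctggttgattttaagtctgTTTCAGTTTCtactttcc
Ifit3b: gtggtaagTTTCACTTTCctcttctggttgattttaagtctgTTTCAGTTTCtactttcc
Oas1a: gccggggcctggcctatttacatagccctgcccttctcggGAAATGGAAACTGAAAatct
Gbp3: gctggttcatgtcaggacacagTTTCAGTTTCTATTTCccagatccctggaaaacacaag
Rsad2: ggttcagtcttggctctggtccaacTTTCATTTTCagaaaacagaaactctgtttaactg

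The Isg15 stretch is chr4:156200856-156200915 on the minus strand, and its 3 overlapping matches lie 57 to 78 bases before the start. The Bst2 stretch is chr8:71537565-71537624 (minus strand) and the Rsad2 stretch, with 1 match, is chr12:26456538-26456597 (minus strand). The Oas1a stretch, chr5:120907526-120907585 (minus strand), ends at the base before the start. The Gbp3 stretch is chr3:142559977-142560036 (plus strand). The Ifit3 stretch (chr19:34583365-34583424) and the Ifit3b stretch (chr19:34607761-34607820), both on the plus strand, are identical over 60 of 60 bases. These are neighbouring gene copies, and fragments that fit both could have been split between them in counting. A match is a run of letters, not a measured binding site.

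The libraries differed in ways that touch every value that follows. Whole fragments recovered from FPKM and exon length numbered 14081222 to 16954480 in the controls and 13324303 in I-PpoI mouse 3, but 1590957 and 834149 in I-PpoI mice 1 and 2. In these last libraries 68.2% and 70.6% of mitochondrial fragments lay on minus-strand genes, against 0.0473 to 0.0821% in the other 4. For genes close to another gene of the other strand, fragments of the 2 may not be told apart in those libraries. Whether they were counted against the opposite strand was not tested, and it would touch every FPKM they hold, strand-clear members included. Such a neighbour lay within 5 kb of an exon for 16 of the 33 members, 6 of them with overlapping exons. Those 6 were Cxcl10, Dhx58, Gbp2, Irf7, Oasl1 and Usp18. The others were Ifi27l2a, Ifit1, Ifit3, Ifit3b, Isg15, Mx1, Mx2, Oas2, Rtp4 and Stat2. Mitochondrial genes took 8.83 to 18.3% of fragments in the controls and 6.42%, 38.2% and 48.2% in I-PpoI mice 1, 2 and 3. By which of a pair of sex-linked transcripts was higher, the 3 controls and 1 I-PpoI library read as male and 2 I-PpoI libraries as female. Given their few counted fragments and strand pattern, this reading may not hold for I-PpoI mice 1 and 2. The part of sex in the results was not tested.

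The number of counted fragments limited what could be seen of the members. Why it was low in I-PpoI mice 1 and 2 was not tested. All 33 together held 29613 to 36669 fragments per control library, 17584 for I-PpoI mouse 3, 1398 for I-PpoI mouse 1 and only 404 for I-PpoI mouse 2. The median member rested on 692 to 982 fragments in a control library, on 417 for I-PpoI mouse 3, on 29 for I-PpoI mouse 1 and on just 9 for I-PpoI mouse 2. Of the 32 members tested, 16 had under 10 fragments for I-PpoI mouse 2 and 5 for I-PpoI mouse 1. The plot of fragments by library shows the gap. Intervals given for single libraries cover counting error only.

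**Figure D1:**
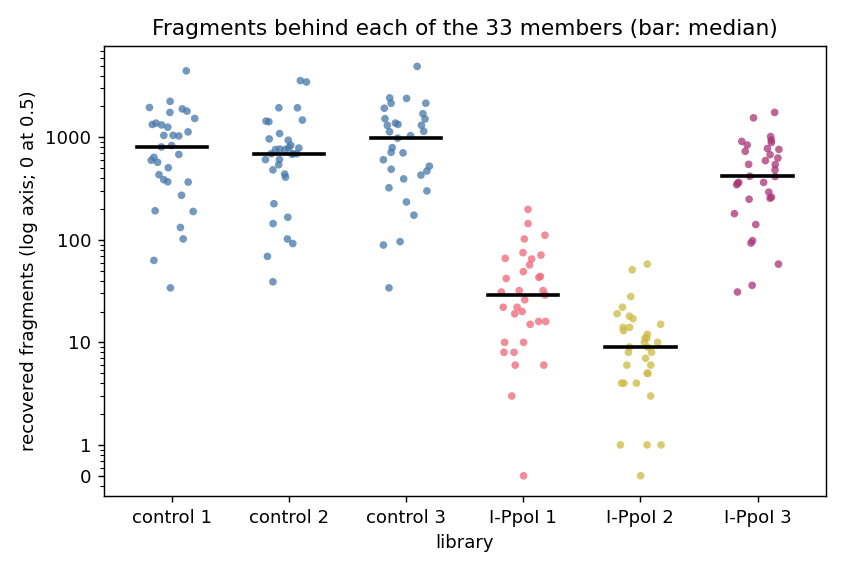
Recovered fragments (log axis, 0 drawn at 0.5) for each of the 33 members, one point per gene, in 3 control and 3 I-PpoI libraries, with the median as a bar. The median is 29 for I-PpoI mouse 1 and 9 for I-PpoI mouse 2, against 417 to 982 in the other libraries.

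The first question was whether the list differed between I-PpoI and control cells. With values as deposited, 32 of 33 members had a mean of at least 1 FPKM and were tested, and 32 of 32 lay lower in I-PpoI, with a median log2 difference of -1.17. None passed: limma called 0 of 32 at adjusted p under 0.05, and 0% of 14962 genes. At unadjusted p under 0.05, 17 members were lower and 0 higher, where 32.2% of all genes were lower and 4.23% higher. Every I-PpoI library lay below every control library for 20 members, as for 45.1% of all genes. The whole table was shifted, with a median log2 difference of -0.65 over all genes and 71.6% of genes below 0. Scaling each library by the median ratio of its tested genes removed that shift (all-gene median 0.02). The members' median was then -0.41, with 28 of 32 below 0 against 49.2% of genes. Cell type markers moved too with this scaling. The 26 endothelial markers listed had a median of -0.50 (24 of 26 below 0), and the 20 proximal tubule markers 1.35 (4 of 20 below 0). Again 0 members and 0% of genes passed. At unadjusted p under 0.05, 1 member was lower (2.87% of genes) and 0 higher (5.43%). All I-PpoI libraries lay below all controls for 2 members (9.76% of genes) and above them for 0 (7.65%). The count depended on 1 library: without I-PpoI mouse 3, limma called 22 members lower on deposited values, as it did 36.6% of all genes. In bulk RNA, fewer cells of a type and less RNA per cell cannot be told apart. The log2 scale here is log2(FPKM + 1), which understates differences of low genes.

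**Figure D2:**
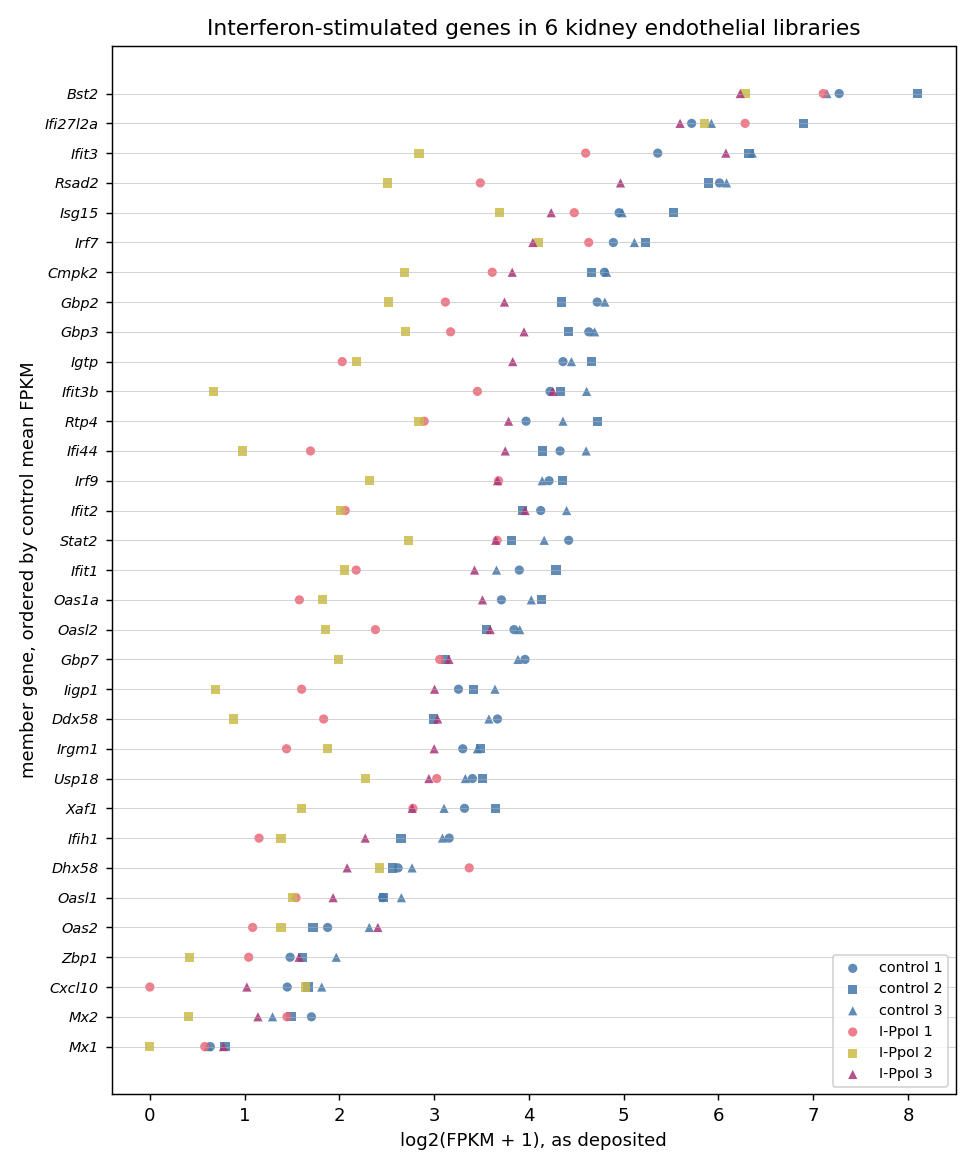
Each row is one member gene and each point one library, as log2(FPKM + 1) of the deposited values, with controls in blue. Bst2 is at the top, with 140.4 to 273 FPKM across controls, and I-PpoI mice 1 and 2 lie to the left in most rows while I-PpoI mouse 3 lies nearer to the controls.

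The sensors were expressed at modest levels. Ddx58 encodes RIG-I, which detects short double-stranded and uncapped RNA (chromosome 4, 40203773 to 40239828, minus strand). It was at 11.7, 6.98 and 10.9 FPKM for control mice 1, 2 and 3 and at 2.56, 0.846 and 7.21 FPKM for I-PpoI mice 1, 2 and 3. The groups overlapped, since I-PpoI mouse 3 lay above control mouse 2, and the log2 difference was -1.50 (SE 0.59, limma adjusted p = 0.135), or -0.98 without I-PpoI mouse 2. Ifih1 encodes MDA5, a sensor of long double-stranded RNA (chromosome 2, 62595798 to 62646255, minus strand), and was at 7.93, 5.27 and 7.5 FPKM across controls and 1.22, 1.61 and 3.83 FPKM across I-PpoI mice. Its groups did not overlap as deposited (log2 difference -1.36, SE 0.40, limma adjusted p = 0.132). After scaling, the log2 differences were -0.84 for Ddx58 and -0.70 for Ifih1, each under 2 times its SE (0.55 and 0.38).

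Dhx58 encodes LGP2, which tunes signalling by the former sensors, and was at 5.14, 4.89 and 5.81 FPKM across controls and 9.34, 4.38 and 3.23 FPKM across I-PpoI mice, a log2 difference of -0.02 (0.69 scaled, SE 0.39). The groups overlapped. It shares exonic sequence with the opposite-strand gene Dhx58os. Its highest value came from 49 fragments in I-PpoI mouse 1, and the part of the overlapping gene was not tested. Zbp1, a sensor of left-handed nucleic acid, was low throughout, at 1.79 to 2.91 FPKM across controls and 0.338 to 1.98 FPKM across I-PpoI mice.

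The transcription factors and feedback genes had scaled differences between group means close to 0. Irf7, the factor that amplifies interferon production (chromosome 7, 141262706 to 141266481, minus strand), was at 28.7, 36.5 and 33.6 FPKM across controls and 23.8, 16.1 and 15.5 FPKM across I-PpoI mice. All 3 I-PpoI values were lower (log2 difference -0.82, SE 0.32, limma adjusted p = 0.135), but the scaled difference was -0.003 (SE 0.29). Scaled, the I-PpoI libraries lay on both sides of the control mean, at 0.18, 0.17 and -0.36 in mice 1, 2 and 3. Irf7 overlaps an exon of the opposite-strand gene Phrf1. Isg15, a ubiquitin-like protein joined to other proteins (chromosome 4, 156199455 to 156200796, minus strand), was at 29.9, 45.2 and 30.6 FPKM across controls and 21.3, 11.9 and 17.8 FPKM across I-PpoI mice. The groups did not overlap as deposited (log2 difference -1.02, SE 0.36, limma adjusted p = 0.132), and the scaled difference was -0.21 (SE 0.29). Stat2 and Irf9, partners in the complex that binds the response element, had scaled differences of -0.001 (SE 0.29) and -0.24 (SE 0.35). Usp18, the protease that removes Isg15 and damps the receptor, was at 0.08 (SE 0.24). For these 5 genes the scaled median was -0.003. Of them only Irf9 has no opposite-strand gene within 5 kb of an exon. Usp18 overlaps an exon of Gm44148, and Stat2 and Isg15 have such a gene within 5 kb. The part of these neighbours in the scaled differences was not tested.

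The Ifit genes encode proteins that bind viral RNA. Ifit3 (chromosome 19, 34583531 to 34588731, plus strand) was at 40.04, 79.0 and 80.9 FPKM across controls and 23.2, 6.16 and 66.6 FPKM across I-PpoI mice. I-PpoI mouse 3 lay inside the control range and the other I-PpoI mice below it (log2 difference -1.51, SE 0.83, limma adjusted p = 0.184). Without I-PpoI mouse 2 it was -0.67, and without I-PpoI mouse 3 -2.29. Ifit3b (chromosome 19, 34607970 to 34613401, plus strand) was at 17.7, 19.2 and 23.4 FPKM across controls and 9.98, 0.597 and 18.05 FPKM across I-PpoI mice. The value of I-PpoI mouse 2 was 1 fragment (exact Poisson 95% interval 0.0151 to 3.32 FPKM), and the log2 difference was -1.59 (SE 0.90, limma adjusted p = 0.193), or -0.53 without I-PpoI mouse 2. Ifit2 had the same order, at 14.2 to 20.1 FPKM across controls, 3.18 and 3.04 FPKM for I-PpoI mice 1 and 2, and 14.6 FPKM in I-PpoI mouse 3. Ifit1 was at 11.6 to 18.5 FPKM across controls and 3.52, 3.15 and 9.75 FPKM across I-PpoI mice, with no overlap. Scaled differences of the 4 had a median of -0.71, and I-PpoI mouse 3 taken alone was above the control mean for each of them.

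The Oas enzymes make the messenger that activates RNase L, and Mx proteins are dynamin-like GTPases that trap viral particles. Oas1a (chromosome 5, 120896256 to 120907521, minus strand) was at 12.1, 16.5 and 15.3 FPKM across controls and 1.98, 2.53 and 10.4 FPKM across I-PpoI mice, with no overlap. Its log2 difference was -1.65 (SE 0.56, limma adjusted p = 0.132), on 6 and 4 fragments in I-PpoI mice 1 and 2. Oasl2 (chromosome 5, 114896936 to 114912234, plus strand) was at 13.3, 10.7 and 13.96 FPKM across controls and 4.21, 2.62 and 11.1 FPKM across I-PpoI mice (log2 difference -1.16, SE 0.50, limma adjusted p = 0.135). I-PpoI mouse 3 again lay within the control range. Oasl1, which restrains Irf7 production, was at 4.49 to 5.29 FPKM across controls and 1.83 to 2.82 FPKM across I-PpoI mice. Oas2 was at 2.30 to 3.98 FPKM across controls and reached 4.30 FPKM in I-PpoI mouse 3. The Mx genes, both listed with the biotype polymorphic pseudogene, were near the lower limit of the table. Mx2 was at 1.45 to 2.26 FPKM across controls, and Mx1, the member below the filter, at 0.530 to 0.732 FPKM. In I-PpoI mouse 2, Mx1 had 0 of 834149 fragments, which allows up to 3.

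The interferon-inducible GTPases coat vacuoles that hold pathogens. All 6 had a scaled difference below 0 (median -0.65), as did 49.2% of all genes. In I-PpoI mouse 3 taken alone, the scaled difference from the control mean was -0.22 for Gbp2. There it was 0.03 for Gbp3, 0.14 for Gbp7, 0.003 for Igtp, 0.19 for Iigp1 and 0.21 for Irgm1. Gbp2 (chromosome 3, 142620602 to 142638008, plus strand) was at 25.4, 19.3 and 26.9 FPKM across controls and 7.68, 4.74 and 12.4 FPKM across I-PpoI mice. Gbp3 (chromosome 3, 142560026 to 142573209, plus strand) was at 23.8, 20.4 and 24.9 FPKM across controls and 8.02, 5.48 and 14.4 FPKM across I-PpoI mice. Neither overlapped, with log2 differences of -1.49 (SE 0.40) for Gbp2 and -1.31 (SE 0.40) for Gbp3, and limma adjusted p = 0.132 for both. Scaled, they were at -0.71 (SE 0.33) and -0.52 (SE 0.33). Igtp was at 19.5 to 24.3 FPKM across controls and 3.08, 3.54 and 13.2 FPKM across I-PpoI mice, on 10 and 6 fragments in the first pair. Iigp1 and Irgm1 likewise had no overlap, at 8.56 to 11.5 and 8.86 to 10.2 FPKM across controls and 0.615 to 7.02 and 1.72 to 7.0004 FPKM across I-PpoI mice. Gbp7 overlapped, since control mouse 2 was at 7.68 FPKM and I-PpoI mouse 3 at 7.91 FPKM.

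The remaining effectors included the most abundant member. Bst2, or tetherin, which holds budding virus at the cell surface, led the list in level (chromosome 8, 71534255 to 71537456, minus strand). It was at 154, 273 and 140.4 FPKM across controls and 137, 76.7 and 74.04 FPKM across I-PpoI mice. I-PpoI mouse 1 lay just below the lowest control (log2 difference -0.97, SE 0.42, limma adjusted p = 0.136), and the scaled difference was -0.12 (SE 0.39). Ifi27l2a, a small mitochondrial membrane protein gene (chromosome 12, 103442167 to 103443680, minus strand), was at 51.6, 118 and 59.8 FPKM across controls and 76.8, 56.7 and 47.3 FPKM across I-PpoI mice. Its groups overlapped (log2 difference -0.27, SE 0.42, limma adjusted p = 0.608). With 1 library left out the difference ran from -0.50 to 0.088, and the scaled difference lay on the other side, at 0.57 (SE 0.43). Ifi27l2a has the opposite-strand gene Ifi27 within 5 kb, and the part of that gene was not tested.

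Rsad2 and Cmpk2 are singled out after their values were seen, because they alone among members kept separate groups after median-of-ratios scaling, a pattern that 9.76% of all genes had. With endothelial scaling neither stayed below the controls, since I-PpoI mouse 3 lay at 0.02 from the control mean for Rsad2 and at 0.08 for Cmpk2. They are neighbours on chromosome 12. Rsad2, viperin, makes a chain-terminating nucleotide and lies at 26442746 to 26456452 on the minus strand. It was at 63.5, 58.5 and 66.9 FPKM across controls and 10.2, 4.68 and 30.3 FPKM across I-PpoI mice, the largest deposited difference of the list (log2 -2.34, SE 0.63, limma adjusted p = 0.132). The fragments numbered 71, 17 and 1748, and the exact Poisson 95% intervals were 7.98 to 12.9 FPKM for I-PpoI mouse 1 and 2.73 to 7.49 FPKM for I-PpoI mouse 2. Scaled, it was at -1.54 (SE 0.56, unadjusted p = 0.0338 and adjusted p = 0.318 by limma). Cmpk2, a mitochondrial nucleotide kinase at 26469204 to 26479837 on the plus strand, was at 26.8, 24.2 and 27.2 FPKM across controls and 11.2, 5.45 and 13.2 FPKM across I-PpoI mice. Its scaled difference was -0.59 (SE 0.29, limma adjusted p = 0.319). Neither gene has an opposite-strand gene within 5 kb. An exact permutation test of 3 against 3 cannot go below 0.10.

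Other effectors spread between these. Ifi44 was at 16.7 to 23.3 FPKM across controls and 2.24, 0.974 and 12.5 FPKM across I-PpoI mice, with no overlap as deposited. Rtp4 and Xaf1 had no overlap either, at 14.7 to 25.3 and 7.60 to 11.5 FPKM across controls and 6.16 to 12.8 and 2.04 to 5.85 FPKM across I-PpoI mice. Cxcl10, a chemokine that draws T cells, was low, at 1.73 to 2.52 FPKM across controls and 0, 2.12 and 1.03 FPKM across I-PpoI mice. In I-PpoI mouse 1 it had 0 of 1590957 fragments, which allows up to 3, and 4 fragments were counted for I-PpoI mouse 2. Cxcl10 overlaps an exon of the opposite-strand gene Art3, and the part of Art3 was not tested.

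The 3 I-PpoI libraries did not place the list alike. Scaled over all tested genes, the median of the 32 members lay at -0.65 and -0.77 from the control mean in I-PpoI mice 1 and 2 and at 0.09 in I-PpoI mouse 3. In I-PpoI mouse 3 only 4 members (Bst2, Cmpk2, Irf7 and Rsad2) lay below every control, while 10 lay above every control and 18 within. Over all genes 26.1% lay below and 22.2% above in that library. In I-PpoI mouse 1, 21 members lay below every control and 5 above (39.3% and 42.3% of genes). For I-PpoI mouse 2 the counts were 24 below and 3 above (41.3% and 42.7%). Lower than the control mean in I-PpoI mice 1 and 2 but higher in I-PpoI mouse 3 were 16 members, a pattern that 15.3% of genes had. Lower in all 3 were 6 (Cmpk2, Gbp2, Ifih1, Isg15, Oasl1 and Rsad2), against 22.1% of genes. With this scaling the strand-clear genes described next also lay low in I-PpoI mice 1 and 2. Their medians were -0.37 and -0.44, with 70.6% and 67.6% of them below the control mean. Scaled over those genes instead, the 32 members had medians of -0.26, -0.40 and 0.09 in I-PpoI mice 1, 2 and 3.

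The same split was seen among members with no annotated opposite-strand gene close by. Counting against the opposite strand would touch these members too, so they give no separate check of the split. Strand-clear genes, protein-coding with no gene on the other strand within 5 kb of an exon, included 17 members and 3654 genes in all. Scaled over these genes, the 17 had medians of -0.67, -0.53 and 0.09 in I-PpoI mice 1, 2 and 3. The numbers below the control mean were 12, 16 and 4 of 17, beside 51.2%, 52.6% and 53.8% of strand-clear genes. Between groups, limma called 0 of 17 and 0% of 3654. Rsad2 was at -1.26 (SE 0.41) and Ifi44 at -1.29 (SE 0.54), each with limma adjusted p = 0.487, and these 2 were lower at unadjusted p under 0.05, as were 5.17% of strand-clear genes. The median of the 17 was -0.35, and 14 lay below 0 (52.6% of strand-clear genes). All I-PpoI libraries lay below all controls for 2 of the 17, as for 9.39% of strand-clear genes. Strand-clear genes together held 241106 and 79921 fragments in I-PpoI mice 1 and 2, so these medians rest on few fragments.

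**Figure D3:**
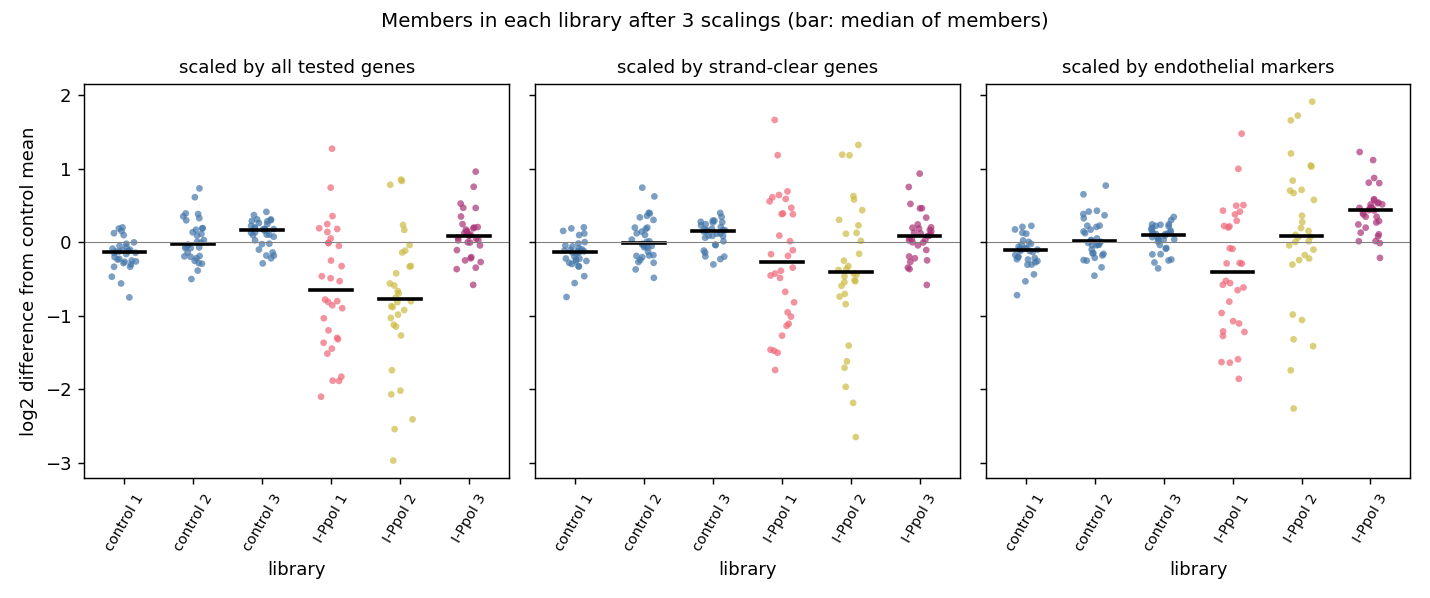
Log2 difference of each of the 32 tested members from its control mean, by library, after scaling to all tested genes, to strand-clear genes and to endothelial markers; bars are medians over members. With the first scaling the medians are -0.65, -0.77 and 0.09 in I-PpoI mice 1, 2 and 3. They are -0.26, -0.40 and 0.09 with the second scaling and -0.41, 0.09 and 0.44 with the third. The second panel shows all 32 members, not only the 17 strand-clear ones.

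The 26 endothelial markers summed to 4756 to 5421 FPKM across controls and to 3512, 1343 and 2219 FPKM for I-PpoI mice 1, 2 and 3. Scaled over strand-clear genes, these sums were 3271 to 3516 for controls and 4966, 2834.5 and 2380.4 for the I-PpoI libraries. The sum of mouse 1 lay above every control and the others below, but single markers of mouse 1 differed. As deposited, Eng, which overlaps an exon of the opposite-strand gene Fpgs, was at 763 FPKM there against 608 to 688 FPKM across controls. Adgrl4 was at 23.5 FPKM there against 134 to 170 FPKM. Between groups, 26 of 26 markers lay below 0 as deposited and 24 of 26 after median-of-ratios scaling. Pecam1, the CD31 antigen of the sort, was at 256, 197 and 237 FPKM across controls and 113, 41.6 and 104 FPKM across I-PpoI mice, so the labelled cell type was marked in every library. Among these markers Sox17, Egfl7, Nos3 and Cd34 overlap opposite-strand exons, as Eng does. The part of such neighbours in a scaling by these markers was not tested. When libraries were scaled by the endothelial markers instead, the members' medians became -0.41, 0.09 and 0.44 in I-PpoI mice 1, 2 and 3. In I-PpoI mouse 3, 25 of 32 members then lay above every control and 0 below, where 52.6% of all genes lay above and 6.62% below. In I-PpoI mouse 2, 15 lay above every control and 9 below (69.0% and 19.2% of genes). I-PpoI mouse 1 had 7 above and 18 below (49.1% and 32.1%). The median difference between groups was 0.08 with this scaling, with 14 of 32 below 0, against a median of 0.48 over all genes. Limma called 0 members and 0 of 14962 genes.

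Markers of other cells also differed between libraries, and their part in the members' values was not tested. The 20 proximal tubule markers summed to 852 to 1625 FPKM across controls and to 368, 1007 and 2082 FPKM for I-PpoI mice 1, 2 and 3. Scaled over strand-clear genes they were at 525 to 1098 for controls and at 520.05, 2125 and 2234 for the I-PpoI libraries. The 15 macrophage markers summed to 157, 708 and 908 FPKM across controls and to 306, 763 and 881 FPKM across I-PpoI mice. Their scaled sums were 96.6, 478 and 625 for controls and 433, 1610.2 and 946 for the I-PpoI libraries. The 12 markers of T, NK and B cells summed to 36.0 to 59.5 FPKM across controls and to 18.9, 8.17 and 12.3 FPKM across I-PpoI mice. Of 7 markers listed for plasmacytoid dendritic cells, strong makers of interferon, Siglech reached at most 0.189 FPKM among controls and 0.222 FPKM among I-PpoI libraries. Ly6d (6.49 to 14.8 FPKM among controls), Tcf4 (6.64 to 8.24), Spib (2.08 to 3.74) and Bst2, itself a member, were higher. In I-PpoI mouse 2 Ly6d and Spib were at 0. Tyrobp, a myeloid adaptor, was at 0 in I-PpoI mouse 1, as was the T cell receptor component Cd3d in I-PpoI mice 1 and 2.

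Upstream of the members, most interferon genes were listed at 0. This held in every library for 19 of 21. A 0 need not mean no RNA, since Trex1, a widely expressed exonuclease, was also listed at 0 in all 6 libraries. Ifnb1 was at 0.157 FPKM in control mouse 3 and 0 elsewhere, and Ifng at 0.165 to 0.319 FPKM across controls and 0, 0 and 0.174 FPKM across I-PpoI mice. The receptor for type I interferons was expressed. Ifnar1 was at 25.2, 15.9 and 21.2 FPKM across controls and 7.45, 4.62 and 10.7 FPKM across I-PpoI mice, and Ifnar2 at 21.2 to 24.2 and 7.17 to 14.05 FPKM. Of 15 receptor and Jak-Stat genes tested, 0 passed, with a scaled median of -0.29.

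The DNA sensing arm was also measured. Cgas, the cytosolic DNA sensor, was at 0.827 to 1.19 FPKM across controls and 1.21, 1.74 and 0.800 FPKM across I-PpoI mice, and it overlaps an opposite-strand gene. Sting1, its adaptor, was at 5.51 to 6.30 FPKM across controls and 1.36, 3.05 and 4.54 FPKM across I-PpoI mice (scaled log2 difference -0.18, SE 0.42). Irf3, the factor it activates, was at 21.2 to 34.5 FPKM across controls and 13.2 to 23.9 FPKM across I-PpoI mice, overlapping. Of 16 genes of nucleic acid sensing tested, 0 passed, 13 lay below 0 as deposited and 10 after scaling. Over all genes 71.6% lay below 0 as deposited and 49.2% after scaling. Irf5, a factor of myeloid cells, shares exonic sequence with the opposite-strand gene Tnpo3. It read 91.6 FPKM for I-PpoI mouse 1 and 64.1 FPKM for I-PpoI mouse 2, against 2.34 to 4.88 FPKM elsewhere, and the part of Tnpo3 in this was not tested.

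A further 50 interferon-stimulated genes outside the list, 42 of them tested, were read beside it. Of these 42, 0 passed, 41 lay below 0 as deposited (median -1.15) and 38 after scaling (median -0.44). Over all genes 71.6% lay below 0 as deposited (median -0.65) and 49.2% after scaling (median 0.02). The 26 endothelial markers had a scaled median of -0.50. Ifitm3, which blocks viral entry, was the most abundant, at 639, 920 and 655 FPKM across controls and 301, 118 and 371 FPKM across I-PpoI mice. Its groups did not overlap as deposited, and the scaled log2 difference was -0.77 (SE 0.39, limma adjusted p = 0.329).

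Within the control group the members already differed by gene length. In control mouse 2 the short members were high, with Ifi27l2a (463 bases of exon) at 118 FPKM against 51.6 and 59.8 FPKM, and Bst2 (903 bases) at 273 FPKM against 154 and 140.4 FPKM. Long members were low there, such as Ddx58 (7050 bases) at 6.98 FPKM against 11.7 and 10.9 FPKM. Across the 32 members, Spearman's rho between exon length and the scaled difference from the control mean was -0.69 in control mouse 2 and 0.66 in control mouse 1. Over 11657 protein-coding genes it was -0.62 and 0.50, so the members shared this with the table. These values are descriptive, since all genes of a library share its RNA, depth and preparation. For the difference between groups the rho was -0.15 over members and -0.13 over protein-coding genes.

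**Figure D4:**
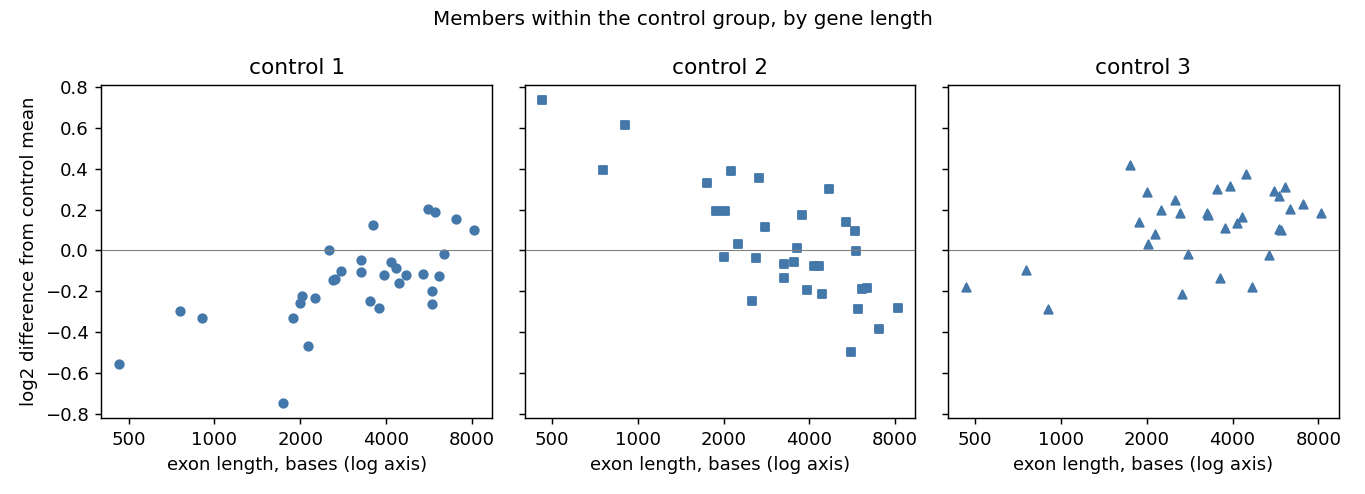
Scaled log2 difference from the control mean against exon length (log axis) for the 32 tested members, one panel per control mouse. Points slope down in control mouse 2 (rho -0.69) and up in control mouse 1 (rho 0.66).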

How the data were processed

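Kidney endothelial RNA of 6 mice was sequenced with paired reads (100 cycles, per the labels' protocols). The authors deposited FPKM per gene and library. The submitters' processing notes name DESeq2 and the builds mm10 and GRCm38. Not given in the sources used here: which aligner, counter and strand option were run. Coordinates are those of the deposited table. Exon lengths and opposite-strand neighbours came from GENCODE M21, which held 55227 of the 55487 gene IDs.

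Multiplying FPKM by exon length recovered whole fragments, within 0.05 of a whole number, for 99.2 to 99.4% of values under 1000 fragments. The test was limma on log2(FPKM + 1), over genes whose mean reached 1 FPKM, unblocked, with p-values adjusted by Benjamini-Hochberg over every gene tested (threshold 0.05). Limma-voom on recovered fragments was an alternative. Tested on simulated data with known changes, this limma fit called few of the changed genes and limma-voom called more. The simulated libraries all followed the mean control profile, without the strand pattern or the table-wide shift seen here. They therefore do not measure how many changes the fits could find in these data. Software was R 4.3.3 with limma 3.58.1, and matplotlib 3.10.9, pandas 2.3.3 and numpy 2.4.6 under python 3.11.15.

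The labels describe separate mice, and all were treated as 1 batch. Members and lists were chosen with earlier results of these data known. Full statistics are given for the 2 members of highest control mean in each of 6 roles. Other members with a fold change, and the genes named from other lists beyond those of the naming rule, were picked after values were seen. Libraries with the same number correlated at 0.26, 0.20 and 0.19 in their deviations from group means over strand-clear genes, and at 0.09, 0.06 and -0.02 over all tested genes. No label ties a number to a litter or a day. One gene is not reported here.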

Additional observations from a re-analysis of the deposited data

How the results depend on the processing

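Across the 24 alternatives, 2 of them chosen after seeing the data (a mean-variance trend, and the replicate block over strand-clear genes), limma called 0 members except with array weights (18 members, all lower; of all genes 6747, with 3962 or 26.5% lower) and without I-PpoI mouse 3. Leaving out 1 library at a time gave 0 to 22 members and 0 to 8438 genes, and -0.50 to 0.088 for Ifi27l2a, above 0 without control mouse 2. Without I-PpoI mouse 2, Ifit3b was at -0.53, Ifit3 at -0.67 and Ddx58 at -0.98. The replicate block over strand-clear genes called 1 gene and 0 members, and so did leaving out I-PpoI mice 1 and 2 with median-of-ratios scaling (1 gene, 0 members), a fit whose spread comes from the controls alone, since 1 I-PpoI library remains; the block on deposited values called 0 genes. The median of the 32 members moved to -0.41 with median-of-ratios scaling, -0.11 with limma-voom and -0.57 without I-PpoI mice 1 and 2. It turned to 0.083 with endothelial scaling and 0.12 without those mice plus median-of-ratios scaling. Over strand-clear genes the median was -0.35, but of only 17 members, so the set changed along with the scaling. The replicate block left the -0.41 and the -0.35 the same. Log2 differences of named members also turned. With endothelial scaling these were Bst2 at 0.44, Gbp3 at 0.0089, Ifi27l2a at 1.13, Irf7 at 0.54, Isg15 at 0.34 and Oasl2 at 0.080. With limma-voom they were Ifi27l2a at 0.33, Ifit3 at 0.099, Ifit3b at 0.21 and Oasl2 at 0.036. Bst2 was at 0.19 over strand-clear genes with and without the replicate block, and Ifi27l2a at 0.57 with median-of-ratios scaling with and without it, and at 0.063 with array weights. Without I-PpoI mice 1 and 2 Ifit3 was at 0.066, and with median-of-ratios scaling added Ddx58 was at 0.28, Gbp3 at 0.059, Ifi27l2a at 0.13, Ifit3 at 0.79, Ifit3b at 0.56, Oas1a at 0.23 and Oasl2 at 0.50. The cause of these turns was not tested. Of 275 values for named members, 234 kept direction and side of the threshold, 17 became called and 24 turned. Few counted fragments limit I-PpoI mice 1 and 2, where the median member had 29 and 9.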
